A study of Sus scrofa with 180 samples.

Results

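The genes described here are 6 components of the complement system in 2 skeletal muscles of the pig: the early components C1QC, C1R and C1S of the classical pathway, its substrate C4A, the central component C3, and CFB of the alternative pathway. They were chosen by name, and every probe that carries one of these symbols in the copy of the study's gene lists used here was taken. That copy is shortened for the genes higher in Semimembranosus (SM), so further probes of these genes may lie on the array. It names 3967 of the 15198 probes of the array and 3481 genes, and 8 probes belong to the 6 genes: 2 to C1R, 2 to C1S and 1 to each of the other genes. It holds only probes that the study itself had found to differ between the muscles, and all 8 probes stood in the list of higher level in SM, so the difference between the muscles is given below as a description, while the variation between pigs within a muscle was not used to choose them.

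RNA was measured in the Longissimus (LM) and the SM of 90 pigs on the GenmascqChip, a single-colour (Cy3) Agilent array of pig muscle transcripts. Every array carries 1 sample, labelled with its muscle and the number of its pig, which makes 90 arrays per muscle. The pigs, both females and barrows by the design text of the series, were second-generation crosses of a Pietrain-type line (FH016) and a synthetic line with Duroc, Large White and Hampshire ancestry (FH019), came from 2 sires, were untreated, and were all NN at the HAL locus and rn+rn+ at the RN locus according to the methods. Both muscles of a carcass were sampled shortly after bleeding from the superficial part with a trocar, so deep parts of the muscles are not represented. Sex, sire, slaughter season and carcass weight are not in the labels, so their part in any relation below was not tested, and the p values treat the pigs as independent although pigs of a sire are related.

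The complement system is a cascade of plasma proteins that tags and destroys microbes and clears dying cells and immune complexes. In the classical pathway, C1q (of which C1QC encodes a chain) binds the target, the proteases C1r and C1s attached to it are activated, and C1s cleaves C4 and C2 to build an enzyme that cleaves C3. Factor B, the product of CFB, supplies the protease of the alternative pathway, which amplifies the cleavage of C3. The liver secretes most circulating complement proteins, whereas C1q is made mainly by macrophages and other myeloid cells, and many tissues transcribe C1r, C1s, C3, C4 and factor B locally, more so under interferon and other cytokines.

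The probes are oligonucleotides of 60 bases. A stretch of 30 bases of each is given here, since every value below rests on these few sequences and since C1R and C1S are read by a pair of probes each. The stretch is the start of the probe or, in the 2 probes that hold it, the surroundings of AATAAA, which is in capitals. AATAAA is the common sequence of a polyadenylation signal, and whether it serves as one in these transcripts was not tested.
C1QC: agatataagcagaagcaccagtcagtgttc
C1R upstream probe: tacgtcgactggatcaaaaaggagatggag
C1R downstream probe: agtagagtgtttAATAAAaaattatctgac
C1S upstream probe: gaaattcattgctgggcatacccttgattt
C1S downstream probe: actctctactgtAATAAAgcacgtttataa
C3: atgctaaacaaactctgccacaaagaaatg
C4A: aaatgttctgtgttttacggggcgccaagt
CFB: gaactttttacccctctaattctcggctct

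Upstream and downstream are named after the positions in the probe names, which lie 60 bases apart on 1 transcript, so the probes of a pair are neighbours that do not overlap. AATAAA starts at base 25 of the downstream probe of C1R and at base 38 of that of C1S. It occurs on the printed strand of 8.70% of all probes of the array and on the other strand of 4.30%. The probes of different members share runs of at most 7 bases, and no member probe shares more than 15 bases with any other probe of the array on either strand. The GC content of the member probes was 35.0% to 55.0%, which is the range from the 5th to the 95th percentile of all probes. In the RefSeq table of the pig assembly Sscrofa11.1, which lists each of the 6 genes once and no C4B, C1R and C1S are direct neighbours, and C4A and CFB are separated by 4 genes (NELFE, SKIV2L, DXO and STK19).

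All levels below are log2 of the processed signal, the spot's brightness once the scanner's software had taken off the background, minus the median of the array, so that 0 is the level of the median probe and a step of 1 is a doubling. Of the 15198 probes, 10987 passed the filters on dim, uneven, saturated and outlying spots in both muscles, and the 8 member probes were all among them. The markers of muscle fibres (6 of 11 listed genes named, among them titin and nebulin) had a mean level between 2.76 and 5.98 in the LM arrays and between 4.12 and 4.98 in the SM arrays, far above the median probe in both. In all, 83.4% of the probes were above background in the median LM array and 73.4% in the median SM array. No slide and no scan day held both muscles, so that the muscle and the hybridization cannot be told apart. The 90 SM arrays and 46 LM arrays were read with Feature Extraction 9.5.3.1 and the other 44 LM arrays with 9.5.1.1.

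The 6 genes had higher mean levels in SM than in LM, by 1.38-fold to 3.07-fold, with the largest ratios for C4A and C1QC and the smallest for C3. All 8 probes were called higher in SM by limma (adjusted p of 0.05 or less), beside 83.5% of all probes called in either direction. Of the 10987 probes, 47.7% were called with SM the higher muscle and 35.7% with LM the higher. Since 98.1% of the probes in the gene lists were called, this count follows from the lists and nothing is read from it. Because whole tissue was measured, more cells of a type and more RNA in each of these cells cannot be told apart in any value given here.

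C1QC, a chain of the recognition protein, ranged from -2.25 over a median of -1.02 to 0.90 in LM and from -1.08 over 0.43 to 2.08 in SM. LM averaged -0.98 ± 0.66 (SD, n = 90) and SM 0.45 ± 0.63 (SD, n = 90), a ratio of 2.70. SM was the higher muscle in 84 of 90 pigs, and the arrays overlapped: 21 SM arrays lay above the highest LM array, and 42 LM arrays lay below the lowest SM array.

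C1R, the protease that activates itself and then C1s, was read by both of its probes on every array. The mean of the pair ranged from 1.45 over 2.20 to 3.41 in LM and from 1.72 over 3.03 to 4.23 in SM, with means of 2.25 ± 0.44 and 2.98 ± 0.51 (SD, n = 90 each), and SM was higher in 81 of 90 pigs. The upstream probe gave a ratio of SM to LM of 1.56 and the downstream probe one of 1.76, so both gave the same direction.

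C1S, which cleaves C4 and C2, ranged from 1.59 over 2.59 to 3.99 in LM and from 2.48 over 3.46 to 4.75 in SM as the mean of its probes, with means of 2.62 ± 0.48 and 3.48 ± 0.52 (SD, n = 90 each). Its ratios were 1.90 and 1.75 by the upstream and the downstream probe, and SM was higher in 82 of 90 pigs. The levels of C1R and C1S overlapped between the muscles, with 17 and 13 SM arrays above all LM arrays.

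C3, on which the pathways converge, was dimmer and more spread. It ranged from -3.91 over -2.51 to -0.54 in LM (n = 82) and from -3.47 over -2.01 to 0.29 in SM (n = 86), and the means were -2.42 ± 0.74 and -1.95 ± 0.82. The SM range and mean leave out 2 values that were removed as outlying. The ratio was 1.38, SM was higher in 55 of the 78 pigs with both values, and the muscles overlapped over most of their range.

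C4A, the substrate of C1s, ranged from -3.97 over -2.99 to -0.60 in LM (n = 77) and from -3.26 over -1.27 to 0.92 in SM (n = 89). The means were -2.86 ± 0.70 and -1.24 ± 0.81, a ratio of 3.07, and SM was higher in 75 of 76 pigs. CFB, the protease of the alternative pathway, ranged from -4.45 over -3.70 to -2.21 in LM (n = 58) and from -3.71 over -2.91 to -1.20 in SM (n = 86). Its means were -3.60 ± 0.52 and -2.85 ± 0.53, a ratio of 1.68, and SM was higher in 48 of 57 pigs. The spot was not well above background on 32 LM and 3 SM arrays for CFB, 13 LM and 1 SM arrays for C4A and 8 LM and 2 SM arrays for C3. Those arrays are missing from the means, which left out the dimmest arrays of LM more than those of SM. With these spots kept, the difference of LM minus SM was -1.03 in place of -0.75 on the log2 scale for CFB, -1.78 in place of -1.62 for C4A and -0.55 in place of -0.47 for C3. In SM, 1 value of CFB and 2 of C3 were also removed as outlying, so the SM ranges leave them out. With outlying values kept, the difference was -0.77 for CFB and -0.53 for C3. With normexp background correction it was -0.45 for CFB, -1.04 for C4A and -0.34 for C3, so the size of these differences depends on how dim signal is handled.

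**Figure D1:**
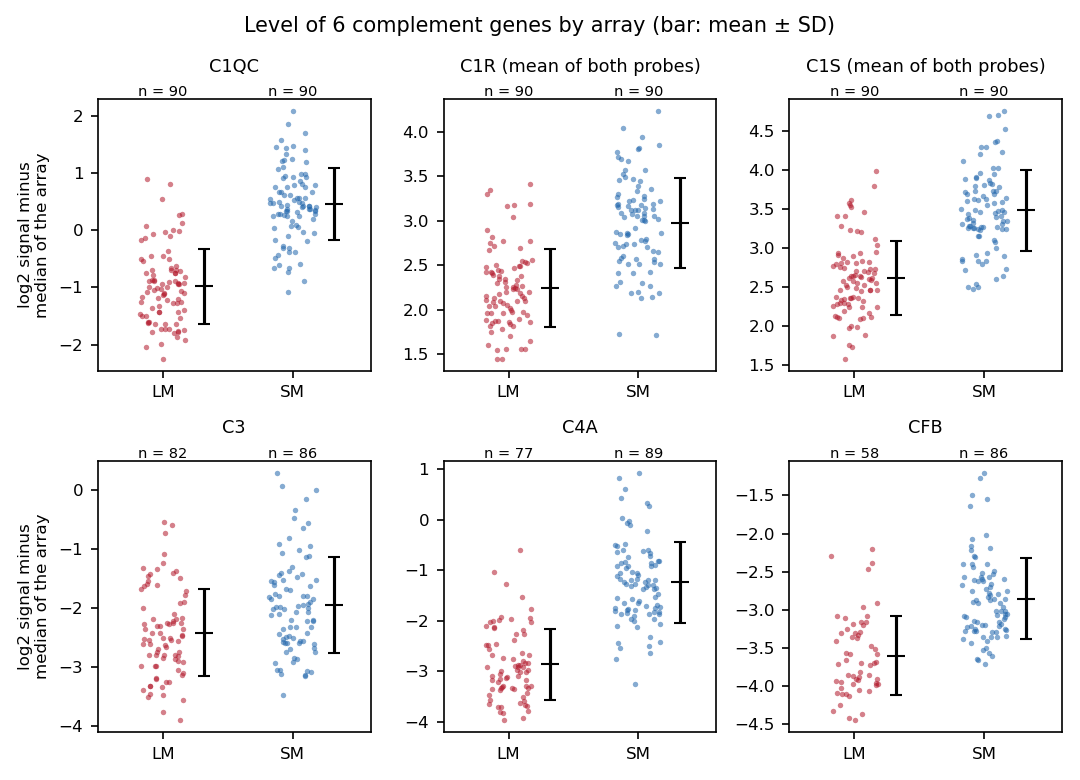
Level of each gene (y axis, log2 processed signal minus the median of the array) in the arrays of LM and SM (x axis). Each point is 1 array, and values removed as dim or outlying are not drawn. The bar beside the points is the mean ± SD, C1R and C1S are the mean of 2 probes, and each panel has its own axis. The arrays of SM lie higher on average in every panel, and the muscles overlap most for C3, where 6 SM arrays lie above all LM arrays.

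Over the arrays of a muscle, 1 for each pig, the member probes varied more than most probes. The SD over arrays holds slide, scan day and measurement noise besides the pig, and the probes were not matched for brightness. C3, C4A and CFB were dim, and the part of dim signal in their SD was not tested. The SD of their levels in SM, 0.50 to 0.82, was larger than that of 89.0% of all probes for the upstream probe of C1R and of 98.9% for C3 and C4A, against a median SD of 0.29 over all probes. In LM the SD was 0.43 to 0.74, with 82.8% of all probes below the upstream probe of C1R and 97.2% below C3, against a median of 0.28. C3, C4A and C1QC had the largest SD of the members in both muscles.

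Within a muscle, the 6 genes varied together across pigs. All 15 pairs were called as correlated in SM and all 15 in LM (permutation test, 100000 resamples, two-sided, adjusted over the 30 pairs, threshold 0.05). For comparison, of the correlations between a member and each probe of no member, by the t approximation and adjusted over them all, 5.76% were called in LM and 20.2% in SM, and 3.3% and 8.65% were called and positive. Pearson's r had a median of 0.70 (0.61 to 0.90) over the pairs in SM, with 83 to 90 arrays a pair. In LM the median was 0.62 (0.30 to 0.90), with 54 to 90 arrays a pair. An r of 0.5 or more was found for 2.09% of the relations of a member with a probe of no member in SM and for 0.949% in LM.

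The closest pair in both muscles was C1R and C1S, the partner proteases of C1. Their r was 0.90 in LM (rho = 0.87, n = 90, permutation p = 1e-05, the smallest that the test can give, adjusted p = 1.15e-05) and 0.90 in SM (rho = 0.89, n = 90, permutation p = 1e-05, adjusted p = 1.15e-05). Without the 2 arrays farthest from the median of C1R, r was 0.89 in both muscles. C4A, the substrate of C1s, came next with C1S in both muscles, with an r of 0.71 in LM (rho = 0.62, n = 77) and 0.83 in SM (rho = 0.82, n = 89), and an adjusted permutation p of 1.15e-05 in each. C1R and C4A reached 0.70 in LM and 0.70 in SM.

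In SM, C3 was tied to C4A with an r of 0.83 (rho = 0.77, n = 86) and to C1S with an r of 0.74 (rho = 0.66, n = 86). CFB was tied to C1S with an r of 0.80 (rho = 0.78, n = 86) and to C4A with an r of 0.74 (rho = 0.73, n = 86). Each of these 4 relations had an adjusted permutation p of 1.15e-05. The lowest r of SM was that of C1QC with C1R, 0.61 (rho = 0.58, n = 90). Genes of the classical pathway, C3 and the protease of the alternative pathway thus varied together over the SM of these pigs. Centring on the mean of each slide left the SM values between 0.60 and 0.90, and within the 4 scan days of 18 to 23 arrays the median r over the pairs was 0.72 to 0.78. With normexp background correction all 15 pairs were called, with a lower median of 0.56 (0.26 for C1R with C3 to 0.91 for C1R with C1S).

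In LM, the 5 pairs with C3 had the lowest values when arrays were not centred on slides. C3 reached 0.30 with C1R (rho = 0.24, n = 82, adjusted permutation p = 0.00695), 0.30 with C1S (rho = 0.27, n = 82, adjusted permutation p = 0.00602), 0.39 with C1QC and 0.39 with CFB, and 0.54 with C4A (rho = 0.48, n = 75, adjusted permutation p = 1.15e-05). Without the 2 arrays farthest from the median of C1R, the relation of C1R and C3 was 0.20 (adjusted permutation p = 0.0688), so that this call rested on those arrays, and the other 14 pairs were still called in that setting. With normexp background correction 12 LM pairs were called, and C1R with CFB (0.14), C1S with CFB (0.13) and C1S with C3 (0.21) were not. Within slides the LM pairs had a median r of 0.61 (0.34 to 0.88), all 15 called. C3 then reached 0.45 with C1R, 0.44 with C1S and 0.58 with CFB, and C1QC with C4A, at 0.45, was below the latter, so that the C3 pairs were no longer the lowest 5.

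The LM relations differed between the versions of the scanner's software, which also separate the scan days. On the 44 LM arrays read with 9.5.1.1 all 15 pairs were called, with a median r of 0.71 (0.49 to 0.93). On the 46 LM arrays read with 9.5.3.1 only 5 pairs were called, with a median r of 0.20 (-0.10 to 0.81). The pairs called there were C1R with C1S (r = 0.81), C1QC with CFB (r = 0.51), C1QC with C1S (r = 0.49), C1QC with C1R (r = 0.49) and C1R with C4A (r = 0.36), and the r of C3 with the other members lay between -0.10 and 0.20. The difference between the versions was not tested. The levels also varied less there: the SD of C4A was 0.87 on the arrays of 9.5.1.1 and 0.47 on those of 9.5.3.1, that of C1S 0.59 and 0.35, and that of C3 0.81 and 0.67. The mean levels differed less, with C4A at -2.79 and -2.94 and C1S at 2.64 and 2.59. In the SM of the same pigs, all read with 9.5.3.1, the median r was 0.76 for the pigs whose LM was read with 9.5.1.1 and 0.63 for the others, and the SD of C4A was 0.92 and 0.67. Over the LM scan days with 10 or more arrays the median r was 0.74, 0.18, 0.56, 0.25, 0.88 and 0.34. The version, the scan day and the pigs cannot be told apart here.

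**Figure D2:**
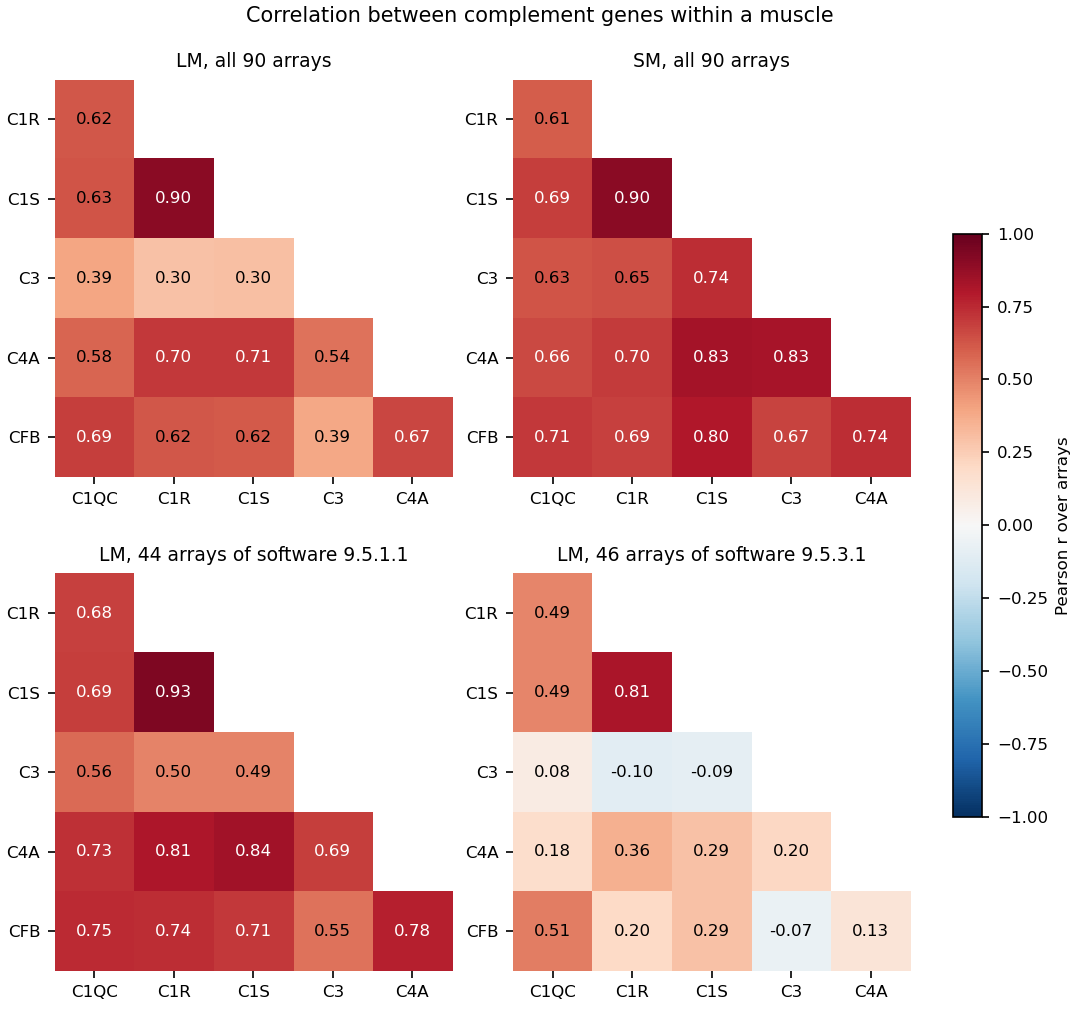
Pearson's r between each pair of the 6 genes over arrays (colour and number; rows and columns are genes) in LM, in SM and in the LM arrays of each software version, with 54 to 90 arrays a pair above and 21 to 46 below. All pairs of SM are 0.61 or more, while the LM arrays of software 9.5.3.1 keep a high r for C1R with C1S (0.81) and show values near 0 for C3.

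**Figure D3:**
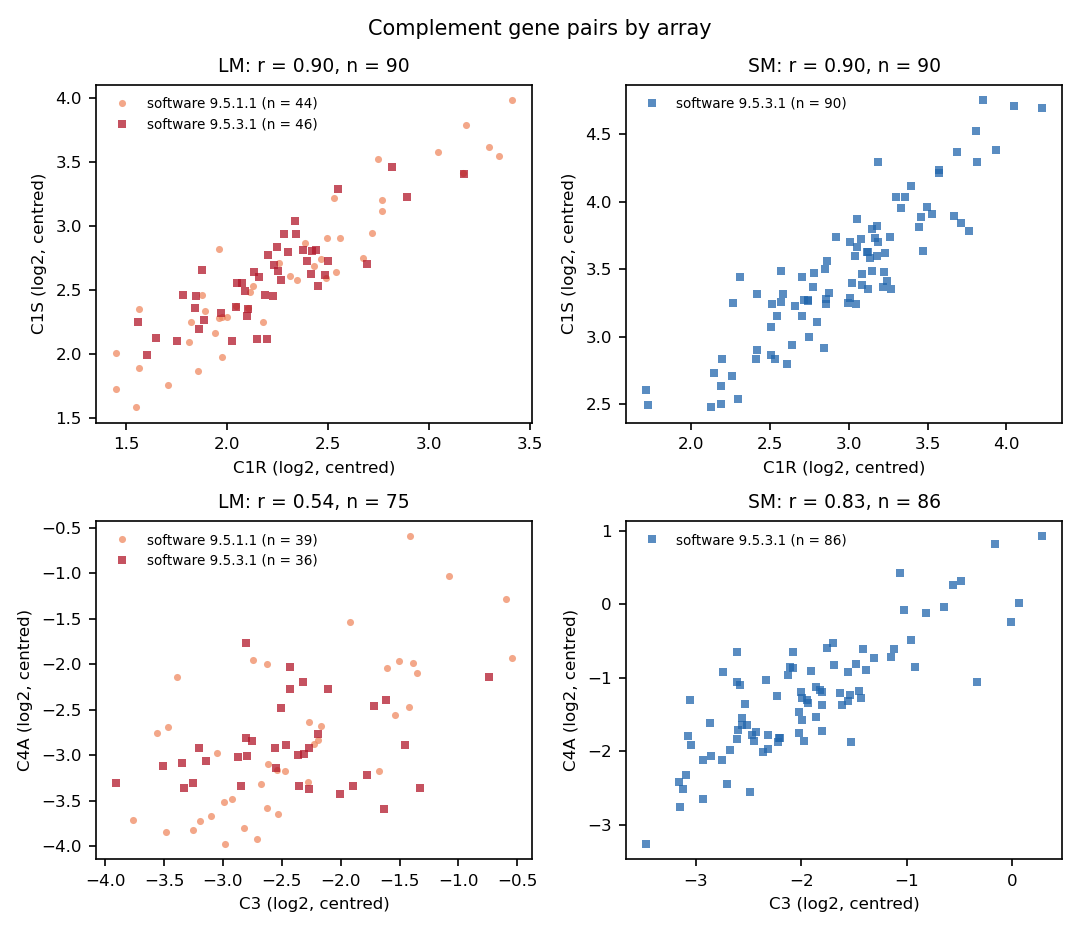
Level of C1S against C1R (top) and of C4A against C3 (bottom) on each array of LM (left) and SM (right), in log2 minus the median of the array. Each point is 1 array and its shape gives the software version. C1R and C1S lie along a line in both muscles (r = 0.90), and r of C3 with C4A is 0.83 in SM and 0.54 in LM, a difference that was not called (adjusted p = 0.0737).

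Whether a pair was more closely tied in SM than in LM was tested by swapping the muscle labels within pigs (100000 swaps, two-sided, 15 pairs). No pair was called, while 3 had an unadjusted p under 0.05, all of them with C3. The r of C1S and C3 was 0.44 higher in SM than in LM (n = 78 pigs, permutation p = 0.00494, adjusted p = 0.0737), that of C3 and C4A 0.28 higher (n = 71, permutation p = 0.00982, adjusted p = 0.0737) and that of C1R and C3 0.34 higher (n = 78, permutation p = 0.0302, adjusted p = 0.151). With values centred on slides, C3 and C4A differed by 0.36 and were called (adjusted permutation p = 0.0407), while the difference was 0.27 for C1S and C3 (adjusted permutation p = 0.204) and 0.16 for C1R and C3 (adjusted permutation p = 0.5). Without the 2 farthest samples of a pair, C3 was called with C1S (0.51), C1R (0.44) and C4A (0.35). The r of C1R and C1S differed by -0.0013 between the muscles (adjusted permutation p = 0.964). The LM values in this test pool both software versions, while all SM arrays are of 1 version. In LM, C3 with C4A had an r of 0.69 with 9.5.1.1 and 0.20 with 9.5.3.1, and C1S with C3 0.49 and -0.088. As the muscles share no slide and no scan day, a difference of r between muscles cannot be told apart from one between hybridizations.

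The pairs of probes show how far a single gene can be read. The probes of C1S had an r of 0.99 with each other in LM and 0.99 in SM (n = 90 each). Those of C1R reached 0.85 in LM and 0.87 in SM, and the SD over arrays of the difference between the probes was 0.25 and 0.27 for C1R, against 0.077 and 0.064 for C1S. The upstream probe of C1R followed C1S more closely than it followed its own neighbour, with an r of 0.96 and 0.95 with the probes of C1S in LM and 0.94 and 0.94 in SM. The downstream probe of C1R, the one with AATAAA, had values of 0.79 and 0.77 in LM and 0.80 and 0.80 in SM. With the upstream or the downstream probe of both genes alone, all 15 pairs of each muscle were still called, and the r of C1R with C1S in LM was 0.96 or 0.77.

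A pig with a high level in 1 muscle did not have a detectably high level in the other. Over pigs, r between the LM and the SM level was 0.21 for C1R (rho = 0.19, n = 90, permutation p = 0.0421, adjusted over 6 genes 0.252), 0.083 for C4A (n = 76), 0.078 for C1S (n = 90), 0.072 for CFB (n = 57), 0.028 for C1QC (n = 90) and 0.00024 for C3 (n = 78), with adjusted permutation p values of 0.893 to 0.998 for the latter 5, whose rho was 0.0094 to 0.094. No gene was called, beside 1.39% of all probes by the t approximation, and the median r over all probes was 0.066. The 95% intervals of the 6 genes had upper limits between 0.22 for C3 and 0.40 for C1R. That of C1R (0.0082 to 0.40) lay above 0, and those of the other 5 genes included it. Centred on slides, the r of C1R was 0.036. With normexp background correction C1R (0.25) and CFB (0.32) were called, both at an adjusted permutation p of 0.0499. Within the pigs of each LM software version, r was between -0.052 and 0.24 for 9.5.1.1 and between -0.076 and 0.34 for 9.5.3.1.

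Some arrays were high in most members at once. In LM, 6 arrays were among the 10 highest in 4 or more of the 6 genes, and 3 of them in all 6. They lay on 4 slides and 2 scan days, and all 6 had been read with software 9.5.1.1. In SM 7 arrays on 4 slides and 3 scan days did so, 3 of them in all 6 genes. A missing value was not counted among the 10 highest, also where it had been removed as outlying.

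**Figure D4:**
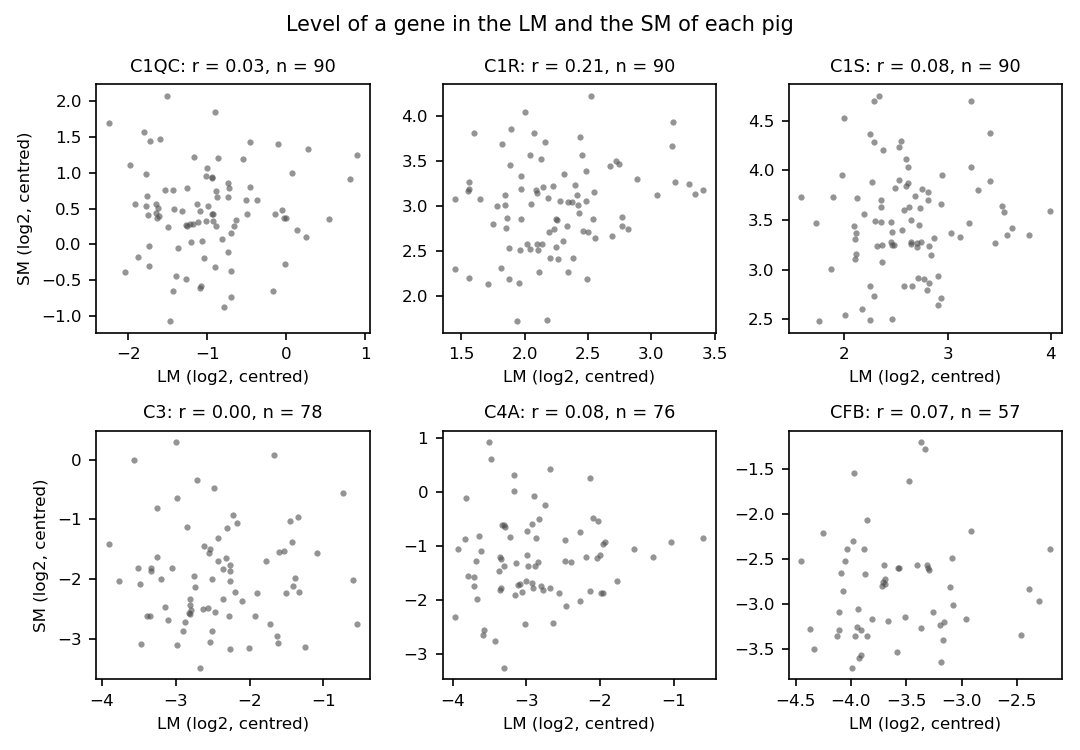
Level of each gene in the SM (y axis) against the LM (x axis) of the same pig, in log2 minus the median of the array, with 1 point for each pig that has both values. The clouds show no clear slope, with r from 0.00 for C3 to 0.21 for C1R.

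The members ranked near the top of each other's most correlated probes. For each member, the other 5 genes were placed among the 10986 or fewer probes left, by the better probe where a gene has more than 1. In SM all 5 other genes were among the first 100 probes for C1R, C1S, C3, C4A and CFB, and 4 of 5 for C1QC, with median ranks of 4 for C1S, 10 for C1R, 14 for C3, 19 for C4A, 22 for CFB and 81 for C1QC. In LM the median ranks were 11 for C4A, 32 for C1R, 45 for C1S, 50 for CFB, 79 for C1QC and 97 for C3, and the number of other genes in the first 100 was 3 to 5. C1R and C1S held rank 1 for each other in both muscles, their own other probe left aside. In SM, C1S also held rank 1 for C4A and for CFB, and C4A held rank 1 for C3. The first principal component of the 6 genes carried 77.0% of their scaled variance in SM and 65.9% in LM.

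By likeness, taken as the mean over both muscles of r with slide-centred values among 3475 named genes, C1QC stood with leukocyte genes. The 3 most alike genes were CD53, a tetraspanin of leukocytes (mean r = 0.82), and FCGR2B and FCGR3B, receptors for the constant part of immunoglobulin G (0.81 and 0.81). C1R and C1S were most like SERPING1, which encodes an inhibitor of these proteases, with a mean r of 0.78 and 0.83. HLA-DMB, which helps load peptides onto class II molecules, and LGALS3BP, a secreted glycoprotein, followed for C1R (0.66 and 0.66), and LGALS3BP and PLAC8 for C1S (0.71 and 0.69).

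C3 was most like FCGR3B (0.64), CTSS, a protease of antigen-presenting cells (0.61), and LCP1, an actin-bundling protein of leukocytes (0.59). C4A was most like ARSA, a lysosomal sulfatase (0.73), SERPING1 (0.70) and ARPC1B, an actin-nucleating subunit (0.64). CFB was most like HLA-DMB (0.73), TAP1, a peptide transporter for class I molecules that interferon induces (0.71), and LGALS3BP (0.69). The members' nearest genes overlapped in part, with SERPING1 in the first 3 of C1R, C1S and C4A, and FCGR3B in those of C1QC and C3.

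Of 39 other complement genes listed, 6 are named in the shortened copy of the gene lists: the terminal component C9, the protease CFD that cleaves factor B, the regulators CD46, CD59 and CLU, and SERPING1. Of these, 5 were higher in SM, by 1.32-fold for SERPING1 to 1.53-fold for CLU, and CD59 was higher in LM by 1.21-fold. As for the members, a list of genes that differ between the muscles fixes this count.

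Across pigs, SERPING1 was the only one of them that was called with all 6 members in both muscles (72 relations, adjusted permutation p of 0.05 or less). Beside this stand the 5.76% and 20.2% of all relations given above. Those were called by the t approximation and adjusted over 65874 relations, so the thresholds differ. In SM the r of SERPING1 was 0.87 with C1S (rho = 0.84, n = 88, adjusted permutation p = 4.8e-05), 0.76 with C1R, 0.75 with C4A, 0.71 with C1QC, 0.70 with CFB and 0.63 with C3. In LM it was 0.81 with C1S (rho = 0.77, n = 90, adjusted permutation p = 4.8e-05), 0.79 with C1R, 0.67 with C4A, 0.66 with CFB, 0.66 with C1QC and 0.27 with C3 (rho = 0.25, n = 82, adjusted permutation p = 0.0309). Without the 2 arrays farthest from the median of the member the LM values were 0.20 to 0.77 and those of SM 0.59 to 0.86. In the LM arrays of software 9.5.1.1 they were 0.50 to 0.85, and in those of 9.5.3.1 they were 0.72 with C1S, 0.66 with C1R and -0.14 with C3. SERPING1 thus followed C1S and C1R in each muscle and each version, and C3 in SM.

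The other complement genes were tied to the members less, and mostly in SM. For comparison, 20.2% of the relations of a member with a probe of no member were called in SM and 5.76% in LM. Called and positive were 8.65% and 3.3%, by the t approximation and adjusted over all of those relations. Because the members varied together, the relations of a gene with the 6 members are not independent. In SM, CD46 was called with 6 members (r = 0.26 to 0.46), CFD with 5 (0.23 to 0.48) and CLU with 5 (0.23 to 0.45). C9 was lower where 4 of the members were higher (r of all 6 from -0.34 to -0.18), and CD59 was called with none (-0.072 to 0.099). In LM, C9, CFD and CLU were called with 1 member each, C9 and CFD negatively with C3 and CLU positively with C1S, and CD46 and CD59 with none. The difference between the muscles was not tested for these genes.

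Some lists of cell type markers varied with the members between pigs and others did not, and most named markers were higher in SM. Of 25 genes of macrophages and antigen-presenting cells listed, 17 are named in the copy of the gene lists, of which 16 were higher in SM and CD68 was higher in LM. In the same way 13 of 14 named fibroblast and matrix genes, 9 of 9 vessel genes, 4 of 4 adipocyte genes, 3 of 3 blood genes, 10 of 16 interferon and cytokine response genes and 1 of 3 liver plasma protein genes were higher in SM, and 2 of 6 muscle fibre genes. Of all 3967 named probes 1999 are from the list of higher level in SM, and since these lists hold only genes that differ between the muscles, nothing is read from the counts. The mean level of the 17 macrophage genes ranged from -1.53 over -1.01 to 0.22 in LM and from -0.84 over -0.089 to 0.88 in SM. Their part in the higher complement levels of SM was not tested. Of the listed macrophage markers, CD14, CD68, CYBB and SPI1 were among those measured in both muscles, SPI1 with a usable spot on only 49 LM and 85 SM arrays. Whether any of these genes is particular to macrophages in these muscles was not tested. CD163, CSF1R, MRC1 and AIF1 are not among the named probes and were not analysed here.

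Within a muscle, the macrophage and antigen-presenting cell genes, averaged as z values, were the list most closely tied to the members, except to C1S in LM, where the interferon and cytokine response list was closer (0.63 against 0.61). The macrophage list holds CD53 and FCGR2B, which were among the genes most like C1QC, and HLA-DMB, the gene most like CFB. Lists were chosen with earlier results of these data known and hold 3 to 17 named genes, so this order is a description. All 6 members were called with the macrophage list in each muscle (96 relations of 6 members with 8 lists in both muscles). Of the relations of a member with single probes of no member, 5.76% were called in LM and 20.2% in SM. Those shares come from the t approximation, adjusted over all such relations. How often the mean of other genes would be called was not tested, and the relations of a list with the 6 members are not independent. With the macrophage list, C1QC had an r of 0.85 in LM (rho = 0.81, n = 90, adjusted permutation p = 4.17e-05) and 0.87 in SM (rho = 0.87, n = 90, adjusted permutation p = 4.17e-05). The other members had 0.47 for C3 to 0.68 for CFB in LM and 0.66 for C1R to 0.79 for CFB in SM. Without the 2 arrays farthest from the median of the member the range over the 6 members was 0.37 to 0.82 in LM and 0.60 to 0.87 in SM, and within slides 0.44 to 0.81 and 0.62 to 0.85. In the LM arrays of software 9.5.1.1 it was 0.62 to 0.90, and in those of 9.5.3.1 it was 0.23 for C3 to 0.74 for C1QC.

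The counts for the other lists stand beside the same shares of single probes, 5.76% in LM and 20.2% in SM. The interferon and cytokine response list was called with 6 members in LM (r = 0.32 to 0.63) and 5 in SM (0.23 to 0.53), where CFB had the highest value, 0.53, and C3 the lowest. The fibroblast and matrix list was called with 6 members in SM, from 0.34 for CFB to 0.66 for C1QC, and with 3 in LM, where C3 had -0.058. Adipocyte genes were called with 6 members in SM (0.25 to 0.47) and 4 in LM (-0.034 to 0.46), and blood genes with 6 (0.24 to 0.37) and 4 (0.21 to 0.54). These LM relations differed between the software versions. On the arrays of 9.5.3.1 and of 9.5.1.1, the interferon list had r from 0.058 to 0.52 and from 0.49 to 0.70, the adipocyte list from -0.35 to 0.31 and from 0.24 to 0.66, the blood list from -0.084 to 0.50 and from 0.28 to 0.52, and the fibroblast and matrix list from -0.25 to 0.50 and from 0.045 to 0.42. The difference was not tested.

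The plasma protein genes of the liver (3 of 10 listed genes named) were called with none of the members in LM (-0.040 to 0.20) and in SM with 2, negatively (-0.23 for C1S and -0.23 for C3). Muscle fibre genes were lower where complement genes were higher: r was negative for all 6 members in both muscles, from -0.43 for C1R to -0.15 for CFB in SM, where 4 members were called, and called for C4A alone in LM (-0.26). Vessel genes were negative with all 6 members in LM, called for 3, and called only with C4A in SM, positively (0.30). On the LM arrays of software 9.5.3.1 the fibre list had r from -0.16 to 0.29 and the vessel list from -0.24 to 0.21, against -0.44 to -0.23 and -0.54 to -0.12 on those of 9.5.1.1.

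With the levels of the macrophage list and of the fibroblast and matrix list held constant in a linear fit, the median r over the 15 pairs was 0.28 in LM and 0.38 in SM, against 0.62 and 0.70 before. C1R with C1S kept the highest partial r, 0.84 in LM and 0.82 in SM, followed in SM by C3 with C4A (0.66) and C1S with C4A (0.60). The pairs with C1QC had the lowest values in SM, from -0.071 with C4A to 0.18 with CFB. These partial values are a description, since the lists hold genes that the same arrays measured.

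**Figure D5:**
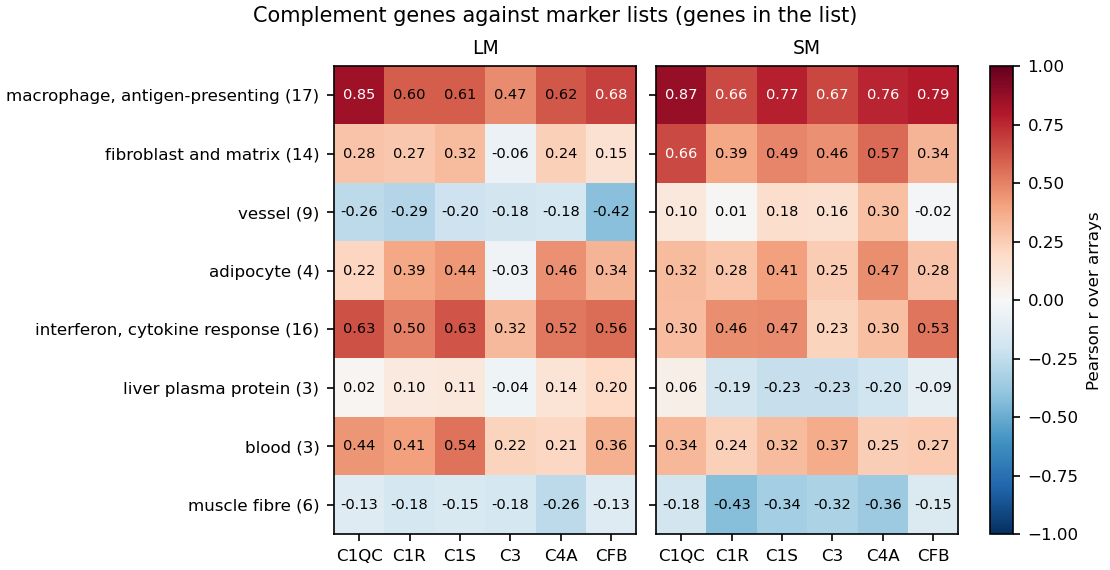
Pearson's r over arrays (colour and number) between each member (columns) and the mean z value of each marker list (rows, with the number of named genes in the list) in LM and SM. The macrophage and antigen-presenting cell list has the highest values in most columns, up to 0.87 for C1QC in SM, and the muscle fibre list is negative throughout.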

How the data were processed

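Per the file headers, Agilent Feature Extraction gave each spot a processed signal intensity, with background subtracted. Each deposited scanner file stands unnormalized. For 6903 probes the authors deposited further values, the natural log of that intensity minus a constant of each array (column medians -0.614 to -0.312). These were checked against the scanner's output and used as an alternative.

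Here the intensity was put on the log2 scale, and a spot failed where the scanner marked it as non-uniform, saturated or not well above background. Probes that failed on more than 50% of the arrays of a muscle were dropped, each array was centred on its median, failed spots were set missing, as were values over 3 SD away from a probe's mean, and the 50% rule was applied again. This follows the methods of the paper, except that its log is natural, its k-means filter was not applied, and its terms for sex, slaughter and hybridization batch and carcass weight are not in the labels. Muscles were compared with limma 3.58.1 (R 4.3.3) and Benjamini-Hochberg adjustment. C1R and C1S are means of 2 probes. Correlations used permutation tests of 100000 resamples (NumPy 2.4.6, SciPy 1.17.1), and those over all probes a t approximation. Both steps were tested on simulated data. How many arrays had a usable spot sets the precision.

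The labels pair the muscles of a pig. Over the 10987 probes, the deviations of the 2 muscles of a pig had a median r of 0.048 (37 of 90 pigs over 0.1). The named genes are the members, the genes of 9 lists that the study's tables name, and the 3 named genes most alike to each member. Members and lists were chosen with earlier results of these data known. The copy of the study's table of genes higher in SM is shortened, so more genes may lie on the array than are named here.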

Additional observations from a re-analysis of the deposited data

How the results depend on the processing

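The muscle differences, the member pairs within a muscle and the genes across muscles were computed again with the 75th percentile or quantile normalization, normexp background, failed spots, dim probes or outlying values kept, the deposited table, slide or scan day centring, the mean level of C-rich probes or the share of probes above background held constant, Spearman's rho, single probes, and without the 2 farthest samples, and, chosen after seeing the data, with the median over passing spots and by software version, as far as each applies. The differences of r were run again only with centring, the 2 covariates, rho and without the 2 farthest samples, and the relations with marker lists and other complement genes only with slide centring, rho, software version and without the 2 farthest samples. All 8 member probes were called higher in SM in every one of the 12 alternatives run for them, and with the pig as a replicate block the count was also 8. The log2 difference of CFB ranged from -1.03 with failed spots kept to -0.45 with normexp, that of C4A from -1.78 to -1.04 and that of C3 from -0.69 to -0.34, where the highest adjusted p was 0.045 (limma). Over all probes, the share of calls higher in SM was 57.2%, against 68.6% with dim probes kept, where the median of all probes moved from -0.068 to -0.20, and 49.0% with the median over passing spots. All 15 SM pairs were called in every alternative. The LM pairs called were 12 with normexp and 14 without the 2 farthest samples, and 5 on the LM arrays of software 9.5.3.1, where C1R with C3 (-0.10), C1S with C3 (-0.088) and C3 with CFB (-0.069) were negative. The genes called across the muscles of a pig were 2 with normexp (C1R 0.25 and CFB 0.32) and 0 as reported. The pairs whose r differed between the muscles were 1 with slide centring (C3 with C4A) and 3 without the 2 farthest samples (C3 with C1R, C1S and C4A). The cause was not tested. Dim signal limits CFB and C4A most in LM. Of the other single values, 760 kept their direction and their side of the threshold, 11 lost the threshold and 6 gained it.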
